A study of Mus musculus with 2 samples.

Results

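Mir183, Mir96 and Mir182 are 3 microRNA (miRNA) genes that lie together on mouse chromosome 6, and they are described here in forebrain at embryonic day 16.5. Their rows were found in both tables by Ensembl gene identifier through GENCODE M21, and all 3 were present among 1973 genes with a row. The cluster was chosen by its counts in these same libraries, in which its genes stood among those with the widest gap between the replicates. For that reason every level and ratio of the 3 genes is given as a description, without a test.

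A miRNA gene is transcribed as part of a longer precursor, from which a hairpin is cut out and then processed to mature strands from its 5′ arm (5p) and its 3′ arm (3p). The mature strand guides the silencing machinery to messenger RNAs that pair with its seed, the bases 2 to 8 counted from the 5′ end. The Mir183, Mir96 and Mir182 genes are known as a sensory cluster, produced as one transcript in hair cells of the inner ear, photoreceptors of the retina, olfactory epithelium and sensory neurons of the ganglia. In both mouse and human, changes within the seed of miR-96 cause progressive hearing loss, and in the mouse retina the cluster is needed for photoreceptor maintenance.

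The study holds 2 libraries of small RNA, biological replicates 2 and 1, each from total RNA of pooled B6NCrl forebrains of male and female embryos described as healthy, with no treatment or engineered allele given. The pool of replicate 2 came from 41 embryos. No number is given for replicate 1, and the labels list separate biosample records under one donor record. Both libraries belong to one group, so there is no contrast between conditions, and the spread between replicates is that between these 2 pools. Replicate 2 held 4158686 counts and replicate 1 held 5060112 counts on the gene strand. Multiply mapped reads have a row of their own, outside the genes, and made up 43.3% of all reads in replicate 2 and 40.5% in replicate 1. Of 11 listed neural genes 10 had a row, and none of these was without a count. Mir137, a regulator of neuronal maturation, was the highest of them. It stood at 11457 CPM (counts per 1000000 gene-strand counts) in replicate 2 and 13239 CPM in replicate 1. Mir124a-1, Mir124a-2 and Mir124a-3, named after their values were seen, had only 15, 9 and 4 counts in replicate 2. In replicate 1 they had 25, 7 and 6. They share 22 bases with each other, which makes their levels uncertain. The 6 genes of the Hox clusters, which pattern the hindbrain and posterior body, summed to 492 CPM in replicate 2 and 768 CPM in replicate 1.

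The mature sequences show how close the 3 genes are to each other. They are given from RefSeq on GRCm38.p6, all from the minus strand of chromosome 6, with the seed in capitals.
miR-183-5p: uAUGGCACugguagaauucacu
miR-96-5p: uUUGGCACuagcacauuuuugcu
miR-182-5p: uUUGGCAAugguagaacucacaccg
miR-183-3p: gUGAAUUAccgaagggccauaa
miR-96-3p: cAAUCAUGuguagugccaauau
miR-182-3p: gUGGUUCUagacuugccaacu

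No 2 of the 5p strands have an identical seed. The seeds of miR-96-5p and miR-182-5p are identical at 6 of 7 positions and share all of bases 2 to 7, UUGGCA. The seeds of miR-183-5p and miR-96-5p are also identical at 6 of 7 positions, and those of miR-183-5p and miR-182-5p at 5 of 7. Over the whole strand, aligned from the first base without gaps, miR-183-5p is closest to miR-182-5p, with 18 of 22 positions identical, against 13 of 22 with miR-96-5p and 12 of 23 between miR-96-5p and miR-182-5p. The 3p strands had at most 7 identical positions in any pair. The 5p likeness of miR-183 and miR-182 thus includes the stretch UGGUAGAA behind the seed, whereas miR-96-5p shares UGGCACU with miR-183-5p and UUUGGCA with miR-182-5p.

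The hairpins are shown because a gene's count covers both arms, and the tables do not separate 5p from 3p reads. Here the capitals mark the mature strands, the 5p first.
Mir183: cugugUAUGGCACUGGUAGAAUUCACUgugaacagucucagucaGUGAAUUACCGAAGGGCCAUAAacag
Mir96: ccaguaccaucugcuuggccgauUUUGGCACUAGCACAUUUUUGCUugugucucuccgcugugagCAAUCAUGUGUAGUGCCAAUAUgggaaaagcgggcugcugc
Mir182: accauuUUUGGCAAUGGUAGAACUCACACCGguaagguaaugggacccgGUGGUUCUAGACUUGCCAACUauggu

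On GRCm38, the assembly that mm10 names, Mir183 (ENSMUSG00000065619.2) is at chr6:30169668-30169737, Mir96 (ENSMUSG00000065586.1) at chr6:30169446-30169551 and Mir182 (ENSMUSG00000076361.1) at chr6:30165918-30165992, all on the minus strand. Transcription therefore meets Mir183 first, Mir96 after 116 bases and Mir182 after a further 3453 bases, within a span of 3820 bases. GENCODE M21 lists no other gene that overlaps this span on either strand, so the genes are intergenic there. The long non-coding RNA gene Rncr4, described in mouse retina, starts 3155 bases beyond Mir183 on the plus strand. The nearest protein-coding genes are Nrf1, which ends 12459 bases beyond Mir182, and Ube2h, 41551 bases away on the other side. None of the 3 hairpins shares a stretch of 22, 18 or 15 bases with another of 2202 annotated miRNA genes on either strand. By comparison, 904 of 1894 genes with a row and a transcript sequence share 22 bases with another miRNA gene, and their uniquely placed reads are uncertain.

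All 3 genes were detected in both pools, and the order Mir182, Mir183, Mir96 from high to low was the same in each. Mir182 had 1554 counts in replicate 2 and 1408 in replicate 1, which is 374 CPM (exact Clopper-Pearson 95% interval 355 to 393) and 278 CPM (264 to 293). Mir183 had 1389 counts in replicate 2 and 1018 in replicate 1, which is 334 CPM (317 to 352) and 201 CPM (189 to 214). Mir96, in whose seed changes cause hearing loss, had 522 counts in replicate 2 and 340 in replicate 1, which is 126 CPM (115 to 137) and 67.2 CPM (60.2 to 74.7). Each gene was higher in replicate 2, and this gap was among the values by which the cluster was chosen. The labels describe no molecular identifiers, so the intervals take in counting error alone. One read spans a whole mature strand, so counts were not divided by length. A library may capture different sequences unequally, which was not tested. In bulk tissue, fewer cells that make a miRNA cannot be told apart from less of it in each cell.

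**Figure D1:**
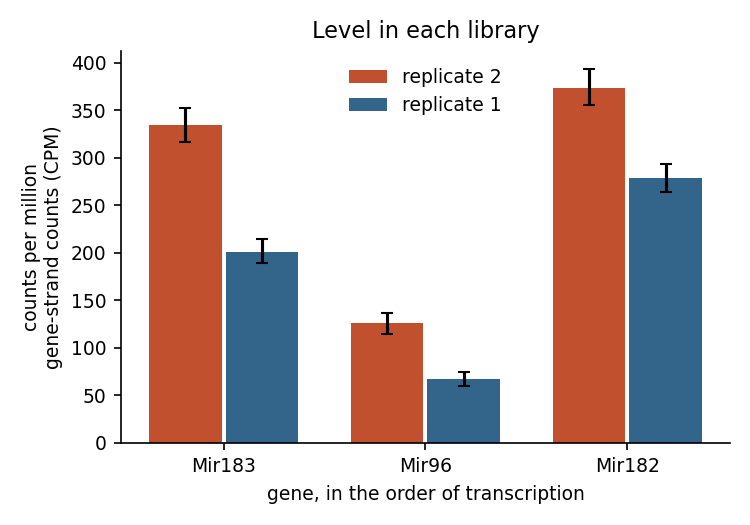
Level of Mir183, Mir96 and Mir182 in counts per 1000000 gene-strand counts (CPM), in replicate 2 and replicate 1. Error bars are exact Clopper-Pearson 95% intervals of counting error; Mir182 is highest and Mir96 lowest in both libraries, and each gene is higher in replicate 2.

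As means over the 2 pools, Mir182 stood at 326 ± 67.5 CPM, Mir183 at 268 ± 93.9 CPM and Mir96 at 96.4 ± 41.2 CPM (SD, n = 2). The SDs of Mir182 and Mir183 are larger than the gap between their means, although Mir182 was above Mir183 within each pool. By mean level among 1973 genes, of which 703 had a count in either library, Mir182 was in place 133, Mir183 in place 145 and Mir96 in place 196. The neighbours in that order were not separated from the members beyond the spread of the pools. Mirlet7a-2, which shares 22 bases with another gene, was just above Mir182 with 349 CPM in replicate 2 and 304 CPM in replicate 1. Mir210, a miRNA induced by low oxygen, was just above Mir183 with 272 CPM in replicate 2 and 266 CPM in replicate 1. Mir33, which lies in an intron of the lipid regulator Srebf2, was just above Mir96 with 86.8 CPM in replicate 2 and 106 CPM in replicate 1. Just below them, Mir328 followed Mir182 at 319 ± 37.2 CPM, Mir540 followed Mir183 at 257 ± 56.6 CPM and Mir329 followed Mir96 at 94.5 ± 23.8 CPM. Summed, the cluster held 833 CPM in replicate 2 and 547 CPM in replicate 1, which is 0.0833% and 0.0547% of the library.

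Within the cluster, the last gene of the transcript gave the most reads and the middle one the fewest. Mir182 gave 44.8% of the cluster's counts in replicate 2 (exact 95% interval 43.2% to 46.5%) and 50.9% in replicate 1 (49.0% to 52.8%). Mir183 gave 40.1% in replicate 2 (38.4% to 41.7%) and 36.8% in replicate 1 (35.0% to 38.6%). Mir96 gave 15.1% in replicate 2 (13.9% to 16.3%) and 12.3% in replicate 1 (11.1% to 13.6%). Position along the transcript and level thus did not run in parallel in either library. Mir182 had 2.98 times the counts of Mir96 in replicate 2 (2.69 to 3.29) and 4.14 times in replicate 1 (3.68 to 4.68). Mir183 had 2.66 times the counts of Mir96 in replicate 2 (2.40 to 2.95) and 2.99 times in replicate 1 (2.65 to 3.40), and these intervals overlap. Mir182 had 1.12 times the counts of Mir183 in replicate 2 (1.04 to 1.20) and 1.38 times in replicate 1 (1.28 to 1.501). These ratios need no scaling between libraries.

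**Figure D2:**
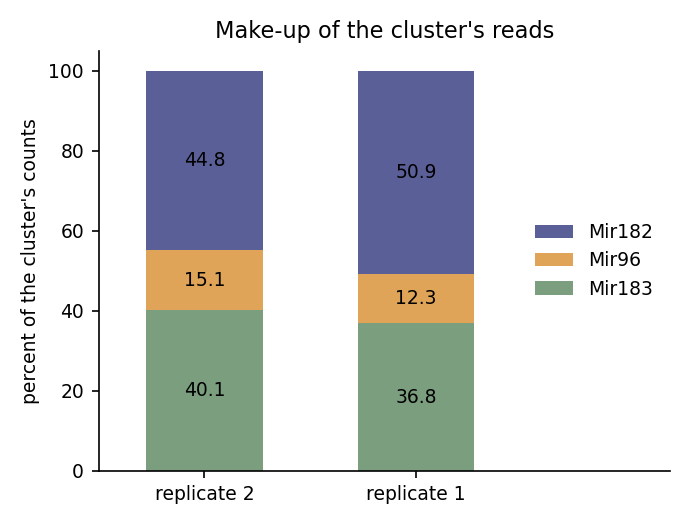
Percent of the cluster's gene-strand counts from Mir183 (bottom), Mir96 and Mir182 (top) in replicate 2 and replicate 1. Mir182 makes up 44.8% in replicate 2 and 50.9% in replicate 1, and Mir96 is the smallest part of both bars.

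Mir96 and Mir182, whose 5p strands share bases 2 to 7, together had 499 CPM in replicate 2 and 345 CPM in replicate 1, counting both arms. That was 59.9% of the cluster in replicate 2 and 63.2% in replicate 1. Outside the cluster, miR-1271-5p has the whole seed of miR-96-5p, and it is printed to show that only the seed is alike.
miR-1271-5p: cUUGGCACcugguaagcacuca
Its gene, Gm24195 on chromosome 13, had 0 counts in both libraries, so that a level of up to 0.721 CPM in replicate 2 and 0.593 CPM in replicate 1, or 3 counts per library, could go unseen among uniquely placed reads. On the 3p side, miR-3475-5p has the seed of miR-96-3p, and its gene Mir3475 on chromosome X had 126 counts in replicate 2 and 197 in replicate 1. In the RefSeq set no other mature miRNA has the seed of miR-183-5p, miR-182-5p or either of their 3p strands.

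The 3 genes were all higher in replicate 2 than in replicate 1, by unequal folds. After TMM scaling (edgeR's trimmed mean of M values), Mir96 was 2.06-fold higher (1.80 to 2.37, log2 ratio 1.04), Mir183 1.83-fold higher (1.69 to 1.99, log2 ratio 0.88) and Mir182 1.48-fold higher (1.38 to 1.60, log2 ratio 0.57). The brackets are exact binomial 95% intervals of counting error and hold no spread between pools. The interval of Mir182 lies below those of Mir183 and Mir96, which overlap each other. The cluster sum was 1.68-fold higher (1.60 to 1.77). With unscaled totals all log2 ratios were lower by 0.14 (a shift of -0.14), and the folds were 1.87 for Mir96, 1.66 for Mir183 and 1.34 for Mir182.

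Of 273 genes that reached 100 counts in each library, 6.23% were at least 1.5-fold higher in replicate 2, and 2 of the 3 members, Mir96 and Mir183, were past that fold. With unscaled totals the share was 2.56%, with the same 2 members past it. Since this contrast was among the values that chose the members, nothing is read from that count. With TMM, 17 of the 273 genes were past the fold on the higher side and 22 (8.06%) on the lower side, and with unscaled totals 7 were higher and 40 (14.7%) lower. With upper-quartile scaling 30 (11.0%) were higher, Mir182 among them, and 8 (2.93%) lower. Mir96 had the highest log2 ratio of the 273 genes, Mir183 was in place 3 and Mir182 in place 18, an order that no scaling of whole libraries can change. The median log2 ratio was 0.88 over the 3 members and 0.02 over the 273 genes, whose median absolute log2 ratio was 0.24.

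**Figure D3:**
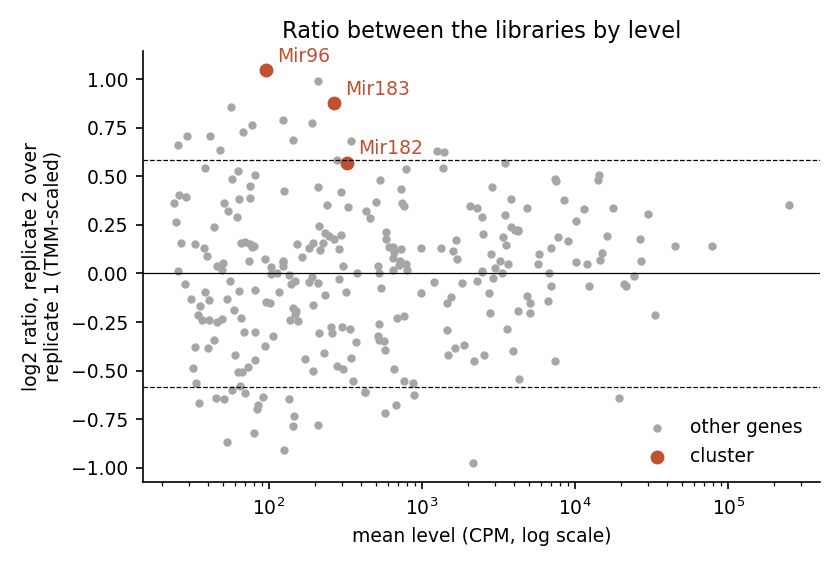
Log2 ratio of replicate 2 over replicate 1 (TMM-scaled) against mean level in CPM on a log axis, for the 273 genes that reached 100 counts in each library; dashed lines mark a 1.5-fold difference either way. Mir96 is the uppermost point at 1.04, Mir183 is at 0.88 and Mir182 at 0.57, just under the upper dashed line.

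Genes of similar level showed how far single miRNAs can lie apart between these pools. Around Mir96, 77 genes had a mean CPM within 2-fold of its own, with log2 ratios from -0.91 to 0.86 and a median absolute value of 0.29. Around Mir183 there were 65 such genes, from -0.79 to 0.99, of which 1 was at or above Mir183. Around Mir182 there were 63, from -0.78 to 0.99, of which 4 were at or above Mir182. Mir96 was thus above every gene of its level, while Mir183 and Mir182 were not. This contrast was among the values that chose the members, so nothing is read from these places. On the lower side, the most extreme ratio was smaller in size than the member's own around Mir96 and Mir183, and larger around Mir182.

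The genes whose ratio lay nearest to that of the cluster sum, a log2 ratio of 0.75, came from other loci. They were ranked by the difference in log2 ratio, which over 2 libraries is a single value for each gene. Mir483, within the imprinted growth factor gene Igf2, had 94.5 CPM in replicate 2 and 61.5 CPM in replicate 1. Mir455, in an intron of a collagen gene, had 233 CPM in replicate 2 and 151 CPM in replicate 1. Mir199b, a miRNA of mesenchymal cells, had 80.8 CPM in replicate 2 and 54.0 CPM in replicate 1. Mir223, a myeloid miRNA, had 151 CPM in replicate 2 and 96.6 CPM in replicate 1. Mir219a-2, of the oligodendrocyte lineage, had 35.1 CPM in replicate 2 and 23.7 CPM in replicate 1. Their log2 ratios were between 0.71 and 0.79. Mir199b and Mir219a-2 share 22 bases with other miRNA genes, which makes their levels uncertain.

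The spread of the 3 genes was set beside that of other genomic clusters. A cluster here joins genes on one strand whose starts are within 10 kb, and 12 clusters had 3 or more genes at 100 counts or above in each library. The log2 ratios of Mir183, Mir96 and Mir182 spanned 0.48, in place 4 of 12, while the 11 others spanned 0.16 to 0.74 with a median of 0.38. The 2 widest were the stretches from Mir379 to Mir3072, in the imprinted Dlk1-Dio3 region on chromosome 12, at 0.74 over 28 genes, and from Mir363 to Mir106a at 0.63 over 4 genes. The 2 narrowest were Mir25 to Mir106b, in an intron of Mcm7, at 0.16, and Mir302b to Mir302d, a cluster of pluripotent cells, at 0.17. A cluster with more genes has more chance to span a wide range. The 4 other clusters with exactly 3 such genes spanned 0.16 to 0.38. The mean levels of Mir183, Mir96 and Mir182 spanned 1.76 on the log2 CPM scale, in place 10 of 12 from the widest, and the others spanned 0.65 to 9.20. No test was made of these differences.

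**Figure D4:**
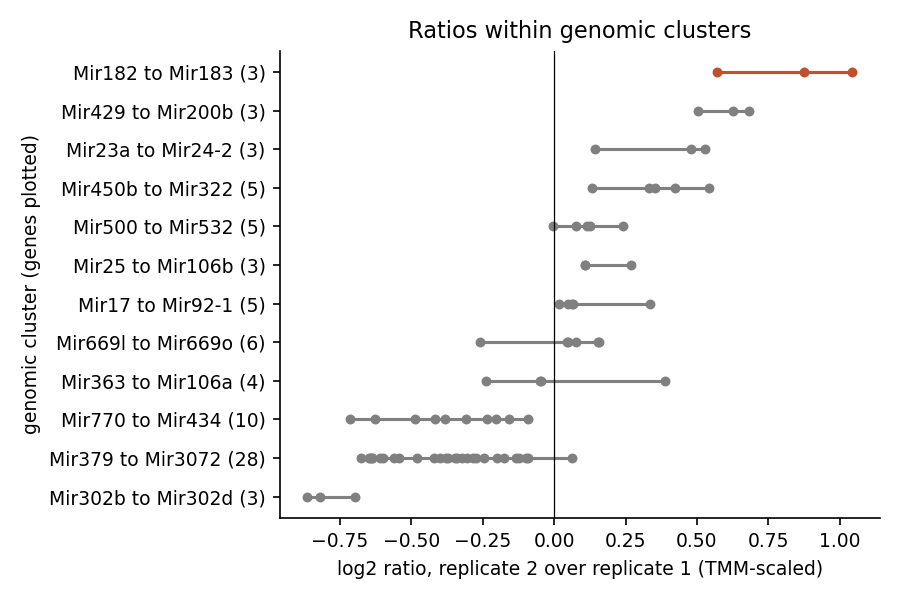
Log2 ratio of replicate 2 over replicate 1 (TMM-scaled) for each gene (points) in 12 genomic clusters, with the range as a line and the number of genes plotted in brackets. The Mir182 to Mir183 cluster spans 0.57 to 1.04 at the top, and the Mir302b to Mir302d cluster lies lowest.

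Several lists of miRNAs known from tissues that could be present in or beside a forebrain dissection were set beside the cluster. Several genes of the epithelial and olfactory list had ratios on the same side as the cluster. All 8 of its genes reached 100 counts in each library, and with TMM 3 were at least 1.5-fold higher in replicate 2, set against 6.23% of all 273 genes. With that scaling 0 were lower, set against 8.06% of all genes, and the median log2 ratio of the list was 0.43. With unscaled totals 0 of the 8 were past the fold, set against 2.56% higher and 14.7% lower of all genes, and the median was 0.29. With upper-quartile scaling 4 of the 8 were higher, set against 11.0% of all genes, and 0 lower, set against 2.93%. Mir429 had 1634 CPM in replicate 2 and 1170 CPM in replicate 1, and Mir200b from the same cluster had 408 CPM in replicate 2 and 280.4 CPM in replicate 1. These are members of the Mir200 family, which maintains epithelial identity. Mir203, a miRNA of skin epithelium, was level, with 1332 CPM in replicate 2 and 1343 CPM in replicate 1. At the low end, Mir205, named after its value was seen and known from stratified epithelium, had a log2 ratio of -0.42. Mir31, also named after its value was seen, was at -0.24. The list summed to 3924 CPM in replicate 2 and 3266 CPM in replicate 1, and no gene of it was at 0. The cluster amounted to 21.2% of that sum in replicate 2 and 16.7% in replicate 1. The part of epithelial tissue in the cluster's levels was not tested.

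Inner ear miRNAs other than the cluster had mixed ratios. Of 9 listed genes, 6 reached 100 counts in each library, and 0 were past 1.5-fold in either direction with TMM or unscaled totals. Of all 273 genes, 6.23% were higher and 8.06% lower with TMM, and 2.56% higher and 14.7% lower with unscaled totals. With upper-quartile scaling 2 of the 6 were higher, set against 11.0% of all genes. The median log2 ratio of the 6 was 0.20 with TMM. Mir140, known from cartilage and named after its values were seen, was the highest of them at 0.57, close to the 0.57 of Mir182, with 3991 CPM in replicate 2 and 2978 CPM in replicate 1. Mir99a, the most abundant gene of the libraries, had 267830 CPM in replicate 2 and 231439 CPM in replicate 1, and Mir15a, with a log2 ratio of 0.49, had 8267 CPM in replicate 2 and 6521 CPM in replicate 1. Mir18, listed as Mir18a, had 3526 CPM in replicate 2 and 3765 CPM in replicate 1. The sum of the list was 283782 CPM in replicate 2 and 244902 CPM in replicate 1. These genes are also made in many other tissues, the brain included, and 4 of the 9 share 22 bases with another gene. Of the retinal genes, Mir204, also abundant in pigment epithelium and choroid plexus, had 1236 CPM in replicate 2 and 1670 CPM in replicate 1. Its close relative Mir211 had 21 counts in replicate 2 and 44 in replicate 1. The list of retina and pigment epithelium summed to 1242 CPM in replicate 2 and 1678 CPM in replicate 1, nearly all of it from Mir204. The part of retinal tissue in the cluster's levels was not tested.

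The summed levels of the endocrine list and of the Hox list were lower in replicate 2, though not every gene was past the fold. Of the 4 endocrine genes, all at 100 counts or above in each library, 2 were at least 1.5-fold lower with TMM, set against 8.06% of all 273 genes. With that scaling 0 were higher, set against 6.23% of all genes, and the median log2 ratio of the list was -0.58. With unscaled totals 3 were lower, set against 14.7% of all genes. Mir7b had 1362 CPM in replicate 2 and 2956 CPM in replicate 1, the lowest ratio of all 273 genes at -0.97. Mir7-1, a further copy of that family, had 486 CPM in replicate 2 and 860 CPM in replicate 1, with reads that cannot be placed apart from those of Mir7-2 where the sequence is shared. Mir375, likewise named after its values were seen and made in pituitary and other endocrine cells, was nearly level. It had 181 CPM in replicate 2 and 203 CPM in replicate 1, a log2 ratio of -0.02. The endocrine list summed to 2267 CPM in replicate 2 and 4389 CPM in replicate 1, most of it from its Mir7 genes. The part of endocrine tissue in these levels was not tested. Of the Hox genes, 3 of 6 reached that minimum, with a median log2 ratio of -0.55 with TMM. With that scaling 0 of the 3 were past the fold, set against 6.23% higher and 8.06% lower of all 273 genes. With unscaled totals 2 were past it and lower in replicate 2, set against 14.7% of all genes. Mir10a was the most abundant, with 271 CPM in replicate 2 and 441 CPM in replicate 1.

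The choroid plexus, neural and erythroid lists showed smaller or mixed ratios. The choroid plexus and ciliated epithelium list had 4 of 6 genes at the minimum, with 0 past the fold with TMM or unscaled totals. Of all 273 genes, 6.23% were higher and 8.06% lower with TMM, and 2.56% higher and 14.7% lower with unscaled totals. The list had a median log2 ratio of 0.12 with TMM and -0.03 with unscaled totals. It summed to 5074 CPM in replicate 2 and 4934 CPM in replicate 1, led by Mir449a of multiciliated cells with 3170 CPM in replicate 2 and 2569 CPM in replicate 1. The neural list had 6 of 10 genes at the minimum, with log2 ratios from -0.61 to 0.38 and a median of 0.00056 with TMM. With that scaling 1 of them was past the fold and lower in replicate 2, set against 8.06% of all 273 genes. With unscaled totals 2 were lower, set against 14.7% of all genes, and the median of the list was -0.14. It summed to 19402 CPM in replicate 2 and 20893 CPM in replicate 1, and 9 of its 10 genes share 22 bases with another gene. Of the 3 erythroid genes, 2 reached the minimum. Mir144 was past the fold and higher, set against 6.23% of all 273 genes with TMM, with 70.0 CPM in replicate 2 and 42.7 CPM in replicate 1. Mir451a from the same locus, which shares 22 bases with Mir451b, had 152 CPM in replicate 2 and 239 CPM in replicate 1. Among TMM, unscaled and upper-quartile scaling, Mir451a was past the fold and lower only with unscaled totals, where 14.7% of all genes were. The erythroid list summed to 240.5 CPM in replicate 2 and 306 CPM in replicate 1. In none of the 8 lists was a gene with a row at 0 in both libraries.

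**Figure D5:**
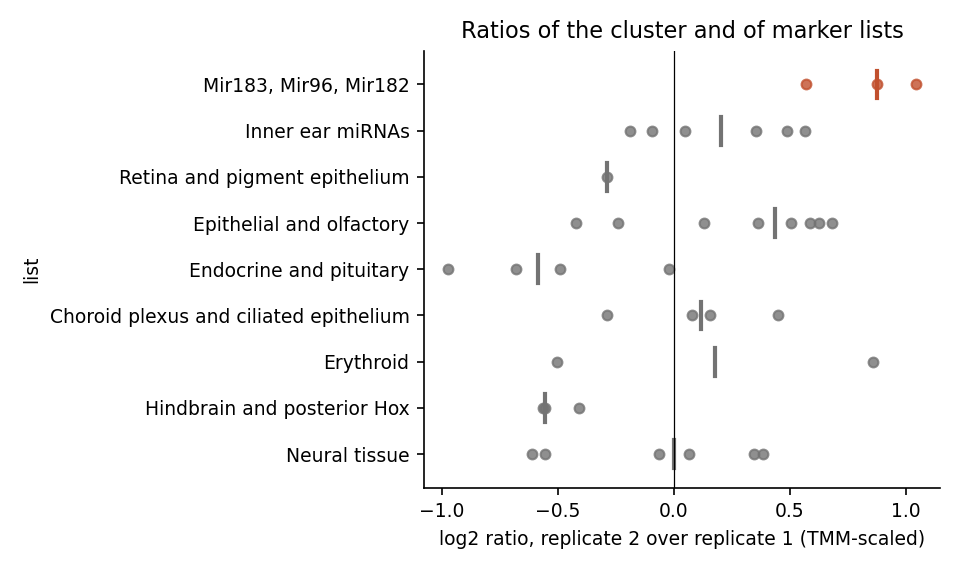
Log2 ratio of replicate 2 over replicate 1 (TMM-scaled) for genes that reached 100 counts in each library (points) and their median (bar), for the cluster at the top and 8 lists below it. The cluster runs from 0.57 to 1.04, the epithelial and olfactory list from -0.42 to 0.68, and the Hox list from -0.56 to -0.41.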

How the data were processed

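The deposited tables give raw read counts per miRNA gene, in total and for each strand, with 4 rows of unassigned reads. The authors used mm10 with GENCODE M4, per the deposited descriptions. Not given in the sources used here are aligner, counter and trimming. The strand column with more reads in all served as the gene strand. Unassigned reads, 61.4% of all reads in replicate 2 and 62.1% in replicate 1, were left out of library totals. The libraries were scaled by TMM in edgeR 4.0.16 (R 4.3.3) over the 466 genes whose counts sum to at least 10. Log2 ratios, of replicate 2 over replicate 1, add 0.5 to each count. Intervals were computed in SciPy 1.17.1, and the ratios were checked on simulated counts. No test was made, since there is 1 group of 2 libraries. Symbols and positions are from GENCODE M21 and older symbols from RefSeq.

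The members and lists were chosen with earlier results of these data known. Apart from the members, the rule for named genes takes genes that share a member's seed, the 5 genes nearest in ratio, the neighbours in level, up to 3 genes of each list by level, and the 2 widest and 2 narrowest genomic clusters. The alternatives changed the scaling, the total, the strand, the minimum count, the count added and the joining distance.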

Additional observations from a re-analysis of the deposited data

Results flagged for a closer look

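The opposite strand of Mir182 held 10 reads in replicate 2, above the limit of 3 counts that a count of 0 allows, and 1 read in replicate 1. These were 0.639% of the reads at Mir182 in replicate 2 and 0.0710% in replicate 1. The opposite strand of Mir183 held 1 read in replicate 2 and 3 in replicate 1, and that of Mir96 held 0 in both.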

How the results depend on the processing

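Of 52 values recomputed under another scaling, total, strand, minimum count, added count or joining distance, 37 stayed and 15 moved further. Levels and shares stayed if within the spread between replicates, and ratios if within the counting interval. Gene counts stayed if within 1.5 times the main count either way, and the range of log2 ratios if unchanged. Some outcomes were fixed beforehand. Levels per 1000000 of all reads had to move, since most reads are unassigned. Ratios without the added 0.5 had to stay, with member counts of 340 or more. None of the log2 ratios among the 52 values changed direction. A scaling shifts all ratios alike, at the lowest by -0.14 with unscaled totals, while the smallest ratio of a member was 0.57 with TMM. No change of direction was thus to be expected, and nothing is read from this. Per 1000000 of all reads, unassigned ones included, the cluster's mean level was 259.7. The cluster's log2 ratio was 0.61 with unscaled totals, 0.87 with upper-quartile scaling and 0.64 with all reads as the total, against 0.75 with TMM. The count of genes at least 1.5-fold higher in replicate 2, 17 with TMM, was 7 with unscaled totals and 30 with upper-quartile scaling. It was 29 of 375 genes with a minimum of 10 counts in both libraries and 91 of 588 with any count in both, where more genes are included. TMM over all genes, an alternative chosen after seeing the data, gave 16. The list counts under other scalings were also added after seeing the data, and with upper-quartile scaling 1 endocrine gene was past the fold and lower, against 2 with TMM. The share of all 273 genes that were lower was 2.93% with upper-quartile scaling and 8.06% with TMM. Counting both strands moved no value of the cluster beyond its spread. The range of its log2 ratios was 0.48 when joined within 5 kb or 50 kb and with a minimum of 10 counts. Joined within 5 kb or with that minimum, the cluster keeps the same 3 genes, so its range could not change. Without replicate 1 the cluster's level was 833 CPM and without replicate 2 it was 547 CPM. With 2 libraries such values cannot lie outside the SD, so they say nothing about stability. With 2 pools, the spread between forebrain pools is poorly known, and no difference between them can be tied to a condition.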
